A study of Mus musculus with 15 samples.

Results

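Cytochrome P450 enzymes were followed in inguinal white adipose tissue of mice, fat that lies under the skin, through 8 genes. These were 7 P450 genes (Cyp2e1, Cyp2f2, Cyp4b1, Cyp1b1, Cyp2d22, Cyp27a1 and Cyp2u1) and Por, which encodes the electron donor of P450s of the endoplasmic reticulum. The genes were matched by symbol among the 37991 genes of the deposited count table, and all 8 were among the 12188 genes abundant enough to test. The list was selected on earlier results of these same libraries, and which values were used was not recorded. KO against WT, where a lower Cyp2e1 level was already known, is treated as the comparison used, and is given as a description with no p-value for these genes. The p-values of both dKO comparisons are not free of that choice either, since they share libraries with it.

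RNA came from 15 samples of C57BL/6 mice aged 8 weeks, 5 in each group, and every mouse carried floxed alleles of LKB1, the kinase encoded by Stk11. In dKO mice, Adipoq-Cre acted on floxed LKB1 and floxed HDAC4 alleles together. In KO mice, Adipoq-Cre acted on floxed LKB1 alone. WT mice had floxed LKB1 without the recombinase. Adipoq-Cre is active in adipocytes, so the other cells of the tissue are not targeted, and no group had HDAC4 floxed without LKB1. Whole tissue was sequenced, so fewer cells of a type and less RNA per cell cannot be told apart. The labels do not describe litters or batches. The spread between libraries is taken as the spread between mice, which may not hold for a dKO pair described below.

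P450 enzymes are heme proteins that insert an oxygen atom into lipids, steroids, drugs and pollutants. Those of the endoplasmic reticulum take electrons from the reductase encoded by Por, and mitochondrial P450s take them from ferredoxin and its reductase. Liver is the best known site of most of these enzymes, while adipose tissue also holds several that act on fatty acids, sterols and lipophilic xenobiotics.

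The libraries held 1564004 to 12089891 counts in dKO, 2969355 to 21570688 in KO and 2181109 to 4062909 in WT. The targeted gene Stk11 had 16.6 to 22.7 CPM (counts scaled to library size by the trimmed mean of M-values, TMM) in dKO, 11.6 to 22.5 in KO and 22.2 to 37.8 in WT. Hdac4 had 4.52 to 7.14 CPM in dKO, 4.36 to 7.11 CPM in KO and 6.24 to 9.35 CPM in WT, so its count over the whole gene did not set dKO apart from KO and the dKO genotype rests on the labels. The summed CPM of 10 adipocyte markers overlapped between groups, at 8888 to 14868 in dKO, with 9729 to 13992 in KO and 8159 to 12305 in WT. Of 8 hepatocyte markers, 3 (Tat, Fga and Ttr) had no count in any library, and the summed CPM of the list reached at most 16.2 in dKO, with 10.3 in KO and 17.3 in WT. The dKO replicates 4 and 5 have titles that share a mouse number, the labels do not say whether they came from 1 mouse, and they stood apart from the other 3 dKO libraries for several genes. Their counts differed by 2.68 times the sampling noise (chi-square over degrees of freedom), against 3.91 to 39.6 for the 29 other pairs within groups. This ratio was not corrected for depth, which raises it, so pairs of unlike depth are not on one scale. Replicates 4 and 5 of dKO were counted as separate samples, and for Cyp27a1, Cyp2u1 and Por the fits without them are given as well. For Cyp2e1 and Cyp2f2 the fit without them is given for dKO against KO.

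Cyp2e1 and Cyp2f2 were the members that were lower in every KO library than in any WT library. The share of all tested genes that separate in this way was not counted. Such separations, here and below, are therefore description only. The 250 bases before the transcription start sites of Cyp2e1 and Cyp2f2 are shown because these genes carry the result. Both sequences come from RefSeq (GRCm38.p6, plus strand, chr7:140763569-140763818 and chr7:27119705-27119954), a later build than the mm9 of the counts. Capitals mark matches to the searched motifs on either strand.
Cyp2e1: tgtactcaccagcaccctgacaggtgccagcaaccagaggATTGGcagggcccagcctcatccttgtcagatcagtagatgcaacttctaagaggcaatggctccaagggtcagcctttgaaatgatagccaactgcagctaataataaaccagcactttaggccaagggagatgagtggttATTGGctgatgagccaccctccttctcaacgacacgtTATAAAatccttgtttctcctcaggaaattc
Cyp2f2: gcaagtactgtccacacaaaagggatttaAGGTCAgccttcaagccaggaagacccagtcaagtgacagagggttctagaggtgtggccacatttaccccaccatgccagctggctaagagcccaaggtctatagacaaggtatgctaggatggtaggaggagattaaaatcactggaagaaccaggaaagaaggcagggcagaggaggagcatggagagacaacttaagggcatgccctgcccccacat

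Promoters of 6 of the 8 genes were in the RefSeq table. The search covered both strands. It used TATAAA for the box that places the start site, CCAAT for the box bound by the NF-Y factor, and AGGTCA for the half-site of many nuclear receptors. It also used GCGTG for the core of the aryl hydrocarbon receptor element, and GTTAAT for the half-site of the liver factor HNF1. No letters were shared between matches of different motifs. The Cyp2e1 sequence held TATAAA at -31 and CCAAT on the minus strand at -210 and -68, which reads as the reverse complement in the printed strand, where positions count back from the start site. The Cyp2f2 sequence held AGGTCA at -221 and none of the other motifs. Cyp27a1 held CCAAT at -71 and -34, Por held GCGTG at -202, -62 and -24, Cyp1b1 held GCGTG at -76, and Cyp4b1 held none. Over 32851 promoters of the same length, 12.4% held TATAAA, 33.8% CCAAT, 14% AGGTCA, 28.2% GCGTG and 6.43% GTTAAT. A match describes the letters only. Cyp2e1 and Cyp2f2 thus shared none of the 5 motifs in these windows.

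Cyp2e1 encodes the P450 that oxidises ethanol, acetone and other small molecules. Its transcript was by far the most abundant among the 91 P450 genes found by symbol. In mm9 the gene (ENSMUSG00000025479) lies at chr7:147949638-147960874 on the plus strand, with 9 exon intervals that sum to 1827 bases. Its level was 245, 352, 321, 325 and 340 CPM in the 5 dKO libraries, 61.5, 154, 175, 212 and 144 CPM in the KO libraries, and 648, 496, 457, 429 and 410 CPM in the WT libraries. The groups did not overlap: every KO library was below every dKO library, and every dKO library was below every WT library. KO replicate 1 was the lowest of all 15 and the most deeply sequenced, with 1270 counts of the gene. The group means were 317 ± 41.9 CPM in dKO, 149 ± 55.5 CPM in KO and 488 ± 95.2 CPM in WT (SD, n = 5 each).

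Cyp2e1 was 3.28-fold lower in KO than in WT (log2 fold change -1.71, SE 0.24). The estimate ran from -1.87 to -1.51 over 23 other ways of fitting the counts. Between dKO and KO, Cyp2e1 was 2.13-fold higher in dKO (log2 fold change 1.09, SE 0.24), with 5 of 5 dKO libraries above every KO library. That difference did not pass edgeR's quasi-likelihood test adjusted over all genes (Benjamini-Hochberg adjusted p = 0.14). DESeq2 gave an adjusted p of 0.00674 for it, and the range over the alternatives was 0.00674 to 0.408. Between dKO and WT, Cyp2e1 was 1.54-fold lower in dKO (log2 fold change -0.62, SE 0.23, edgeR adjusted p = 0.24, range over the alternatives 0.0985 to 0.587), with 5 of 5 dKO libraries below every WT library. The 3 comparisons share libraries in pairs and are not independent of each other. The dKO pair with a shared mouse number averaged 333 CPM of Cyp2e1, against 306 CPM in the other 3 dKO libraries. With that pair left out, Cyp2e1 was still higher in dKO than in KO, by 1.05 in log2. This too did not pass edgeR's test (adjusted p = 0.216).

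**Figure D1:**
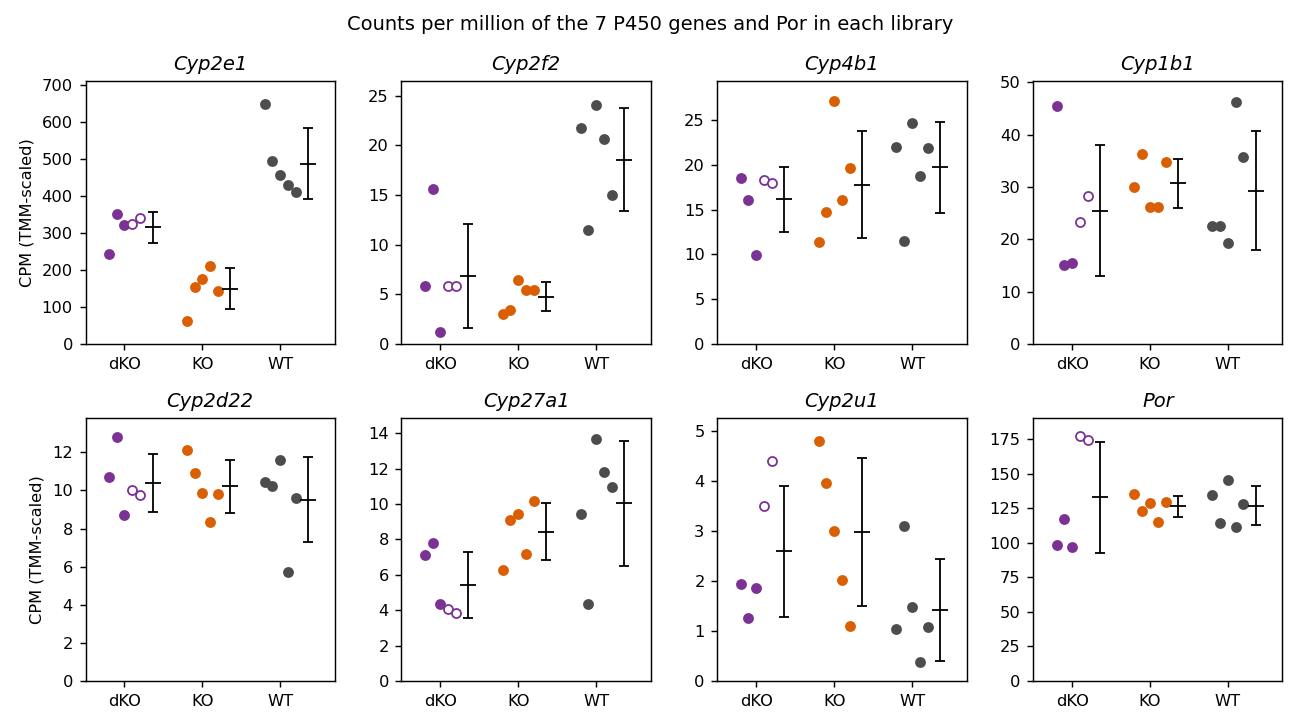
Level of each gene in CPM (TMM-scaled, axes start at 0 and differ between panels) in the 5 libraries of dKO, KO and WT; hollow points are the dKO pair with a shared mouse number, and black bars give the mean ± SD (n = 5). Cyp2e1 forms 3 separate sets of points, with KO at 61.5 to 212 CPM and WT at 410 to 648 CPM, while Cyp4b1, Cyp1b1, Cyp2d22 and Por overlap between all groups.

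Cyp2f2 encodes the mouse P450 known for activating naphthalene in airway club cells. The gene (ENSMUSG00000052974) lies at chr7:27904928-27918679 on the plus strand of mm9, with 11 exon intervals, and 6194 bases of its span overlap Gm15883 on the other strand. That neighbour had 27 counts over all libraries, against 644 for Cyp2f2. Cyp2f2 stood at 5.84, 15.6, 1.24, 5.84 and 5.85 CPM in dKO, 3.00, 3.47, 6.45, 5.47 and 5.45 CPM in KO, and 21.7, 11.5, 24.1, 20.6 and 14.96 CPM in WT. All KO libraries were below all WT libraries, and so were 4 of the 5 dKO libraries. The exception was dKO replicate 2. The counts behind these values were low, from 2 to 69 in dKO, with 15 to 62 in KO and 37 to 83 in WT. The lowest value, in dKO replicate 3, rests on 2 counts in the shallowest library.

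The means of Cyp2f2 were 6.87 ± 5.26 CPM in dKO, 4.77 ± 1.46 CPM in KO and 18.6 ± 5.19 CPM in WT (SD, n = 5 each). It was 4.16-fold lower in KO than in WT (log2 fold change -2.06, SE 0.38). It was -1.87 without KO replicate 1 and -1.96 without KO replicate 2. Between dKO and WT, Cyp2f2 was 2.59-fold lower in dKO (log2 fold change -1.37, SE 0.36, edgeR adjusted p = 0.104). It was called in that comparison by DESeq2 (-1.40, adjusted p = 0.0178) and by edgeR without dKO replicate 2 (-1.86, adjusted p = 0.0126). Over all alternatives the log2 fold change ran from -1.86 to -1.13, and the adjusted p from 0.0126 to 0.461. Between dKO and KO the log2 fold change was 0.68 (SE 0.39, edgeR adjusted p = 0.831), with 1 dKO library above all KO libraries and 1 below them. It was 0.21 without dKO replicate 2 (edgeR adjusted p = 0.872). Without the dKO pair with a shared mouse number it was 0.97 (edgeR adjusted p = 0.534). The summed CPM of 8 epithelial markers was 2.92 to 56.6 in dKO, with 0.726 to 5.52 in KO and 2.67 to 46.3 in WT. It was high in dKO replicate 2 (34.7) and dKO replicate 3 (56.6), the libraries with the highest and the lowest Cyp2f2 of dKO, and its part in the result was not tested.

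Macrophage markers were lower in every dKO library than in any WT library, and KO overlapped both. The summed CPM of the 8 macrophage markers found in the table was 622 to 822 in dKO, with 696 to 930 in KO and 828 to 1596 in WT, and none of them was called in any comparison by edgeR. The part of these markers in the Cyp2e1 or Cyp2f2 values was not tested.

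Cyp4b1 encodes a P450 that hydroxylates fatty acids and activates some xenobiotics. It had 18.5, 16.1, 9.95, 18.3 and 17.97 CPM in dKO, 11.4, 14.7, 27.1, 16.1 and 19.6 CPM in KO, and 22.0, 11.5, 24.6, 18.7 and 21.9 CPM in WT. The 3 groups overlapped throughout, and the lowest library was dKO replicate 3. The log2 fold changes were -0.20 (SE 0.24) for KO against WT, -0.06 (SE 0.24, edgeR adjusted p = 0.983) for dKO against KO and -0.26 (SE 0.24, edgeR adjusted p = 0.645) for dKO against WT. The sign between dKO and KO turned to 0.13 without KO replicate 3.

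Cyp1b1 encodes a P450 that oxidises estradiol and polycyclic aromatic hydrocarbons. It had 45.4, 15.1, 15.5, 23.2 and 28.2 CPM in dKO, 30.1, 36.2, 26.2, 26.2 and 34.8 CPM in KO, and 22.5, 22.6, 19.3, 46.2 and 35.8 CPM in WT. The spread within dKO and within WT was wider than any difference between groups, and the 5 KO libraries lay close together. Its log2 fold changes were 0.08 (SE 0.28) for KO against WT, -0.26 (SE 0.28, edgeR adjusted p = 0.902) for dKO against KO and -0.18 (SE 0.28, edgeR adjusted p = 0.805) for dKO against WT. The sign of the first turned to -0.048 without WT replicate 3, and that of the last to 0.029 without WT replicate 4.

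Cyp2d22 belongs to the mouse Cyp2d subfamily, whose human relative CYP2D6 metabolises many drugs. It had 10.7, 12.8, 8.71, 10.04 and 9.75 CPM in dKO, 12.1, 10.9, 9.89, 8.35 and 9.80 CPM in KO, and 10.5, 10.2, 11.6, 5.72 and 9.62 CPM in WT. The groups overlapped, and WT replicate 4 was the lowest library. All log2 fold changes were between 0.01 and 0.12, with edgeR adjusted p = 0.996 for dKO against KO and 0.807 for dKO against WT, and each turned negative when single libraries were left out. The 7 other Cyp2d genes of the table had 1 count between them, against 857 for Cyp2d22, so few if any reads were credited to those close relatives.

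Cyp27a1 encodes the mitochondrial sterol hydroxylase that starts the acidic route from cholesterol to bile acids. It had 7.14, 7.78, 4.35, 4.09 and 3.81 CPM in dKO, 6.29, 9.09, 9.46, 7.19 and 10.2 CPM in KO, and 9.42, 4.34, 13.7, 11.8 and 10.95 CPM in WT. The 3 dKO replicates numbered 3 to 5 were below every KO library, and WT replicate 2 was level with them. Means were 5.44 ± 1.87 CPM in dKO, 8.44 ± 1.63 CPM in KO and 10.04 ± 3.54 CPM in WT (SD, n = 5 each). The log2 fold changes were -0.28 (SE 0.28) for KO against WT, -0.64 (SE 0.29, edgeR adjusted p = 0.79) for dKO against KO and -0.92 (SE 0.29, edgeR adjusted p = 0.164) for dKO against WT. The lower dKO values did not pass the test in either comparison. The dKO pair with a shared mouse number had a mean of 3.95 CPM, against 6.43 CPM in the other 3 dKO libraries. Without that pair the log2 fold change was -0.28 for dKO against KO (edgeR adjusted p = 0.85) and -0.59 for dKO against WT (edgeR adjusted p = 0.708).

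Cyp2u1 encodes a P450 that hydroxylates long-chain fatty acids such as arachidonic acid. It was the scarcest member, at 1.95, 1.26, 1.87, 3.50 and 4.41 CPM in dKO, 4.79, 3.97, 3.01, 2.01 and 1.09 CPM in KO, and 1.046, 3.10, 1.48, 0.382 and 1.07 CPM in WT. The libraries held 3 to 52 counts of it in dKO, 3 to 99 in KO and 1 to 10 in WT. The groups overlapped, though 2 KO libraries and 2 dKO libraries were above all WT libraries. The log2 fold changes were 1.17 (SE 0.48) for KO against WT, -0.18 (SE 0.42, edgeR adjusted p = 0.964) for dKO against KO and 0.996 (SE 0.49, edgeR adjusted p = 0.361) for dKO against WT. The 2 dKO libraries above all of WT are the pair with a shared mouse number, whose mean of 3.96 CPM was 2.34 times that of the other 3 dKO libraries. Without the pair the log2 fold change was -0.97 for dKO against KO (edgeR adjusted p = 0.641) and 0.19 for dKO against WT (edgeR adjusted p = 0.977), and it reached 1.47 for dKO against WT under another alternative.

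Por encodes the flavoprotein that passes electrons from NADPH to the microsomal P450s. It had 98.0, 118, 97.0, 177 and 174 CPM in dKO, 135, 123, 129, 115 and 129 CPM in KO, and 135, 114, 145, 111 and 128 CPM in WT. KO and WT covered the same narrow range, and dKO had 2 libraries above it, 2 below it and 1 within it. The means were 133 ± 40.0 CPM in dKO, 126 ± 7.79 CPM in KO and 127 ± 14.1 CPM in WT (SD, n = 5 each). The log2 fold changes were -0.01 (SE 0.16) for KO against WT, 0.08 (SE 0.16, edgeR adjusted p = 0.952) for dKO against KO and 0.08 (SE 0.16, edgeR adjusted p = 0.858) for dKO against WT. The high libraries were the dKO pair with a shared mouse number, with a mean of 176 CPM against 104 CPM in the other 3 (ratio 1.69). Without that pair the log2 fold change turned to -0.27 for dKO against KO (edgeR adjusted p = 0.529) and -0.29 for dKO against WT (edgeR adjusted p = 0.565). The same pair had summed lymphocyte markers (8 genes) of 220 and 225 CPM, against 580 to 968 CPM in the other dKO libraries, 647 to 897 in KO and 571 to 1097 in WT. The pair also had the highest summed adipocyte markers of all 15 libraries (14868 and 14769 CPM). Its summed Schwann cell markers were 500.3 and 515 CPM, against 191 to 300.1 CPM in the other dKO libraries, 230.1 to 290 in KO and 198 to 297 in WT. The part of these markers in the Por values was not tested.

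**Figure D2:**
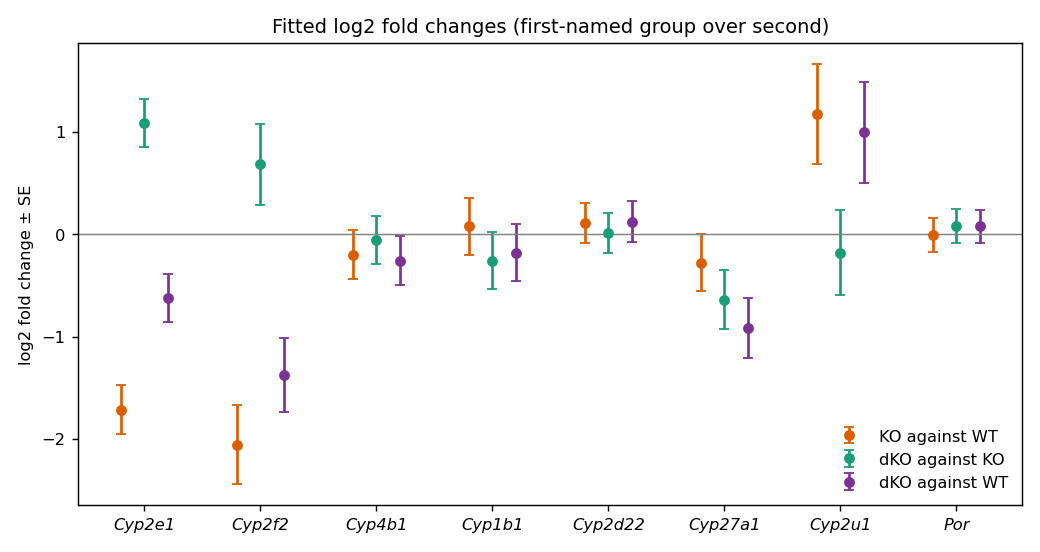
Fitted log2 fold change of each gene (vertical axis, first-named group over second, bars are ± 1 SE) for KO over WT, dKO over KO and dKO over WT. Cyp2e1 lies at -1.71, 1.09 and -0.62 and Cyp2f2 at -2.06, 0.68 and -1.37, while Cyp4b1, Cyp1b1, Cyp2d22 and Por lie between -0.26 and 0.12 in all 3.

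By the threshold applied to every gene (edgeR adjusted p under 0.05), 2 of the 8 members were past it for KO against WT, both lower in KO. Over all genes, 76 of 12188 (0.624%) were called in that comparison, and nothing is read from the members' share because that comparison is treated as used for the choice. For dKO against KO, edgeR called 0 of the 8 members, beside 9 of 12188 genes (0.0738%). At an unadjusted p under 0.05 there were 2 members, Cyp2e1 and Cyp27a1, beside 6.17% of all genes. DESeq2 called 1 (Cyp2e1), beside 37 of 12188 genes, and limma voom called 0, beside 9 of 12188. For dKO against WT, edgeR called 0 of the 8, beside 75 of 12188 genes (0.615%). At an unadjusted p under 0.05 there were 3 members, Cyp2e1, Cyp2f2 and Cyp27a1, beside 14.5% of all genes. DESeq2 called 1 (Cyp2f2), beside 235 of all genes, and limma voom called 0, beside 28 of all genes. The members' median log2 fold change was -0.10 for KO against WT, -0.022 for dKO against KO and -0.22 for dKO against WT. Over all genes the medians were 0.0051, 0.0016 and -0.0025.

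Levels of different genes were compared per kilobase of exon. Cyp2e1 had a mean of 173 CPM per kb in dKO, 81.8 in KO and 267 in WT. In WT that was 77.2% of the summed CPM per kb of the 91 P450 genes found by symbol. Those symbols are Cyp, a number, letters and an optional further number. P450 genes with symbols of another form are not in this sum. In WT the members then ranked as Cyp2f2 at 9.16 CPM per kb, Cyp4b1 at 8.65, Cyp1b1 at 5.62, Cyp27a1 at 5.31, Cyp2d22 at 3.44 and Cyp2u1 at 0.607. The steps from Cyp2f2 to Cyp4b1 and from Cyp1b1 to Cyp27a1 were smaller than the SDs of those means (2.56 and 2.23 CPM per kb for the first pair, 2.18 and 1.87 for the second, n = 5). Por, at 33.0 CPM per kb in dKO, 31.4 in KO and 31.5 in WT, was below Cyp2e1 in all groups and above every other member. In KO the order below Cyp2e1 was Cyp4b1 at 7.80 CPM per kb, Cyp1b1 at 5.90, Cyp27a1 at 4.47, Cyp2d22 at 3.68, Cyp2f2 at 2.35 and Cyp2u1 at 1.28.

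**Figure D3:**
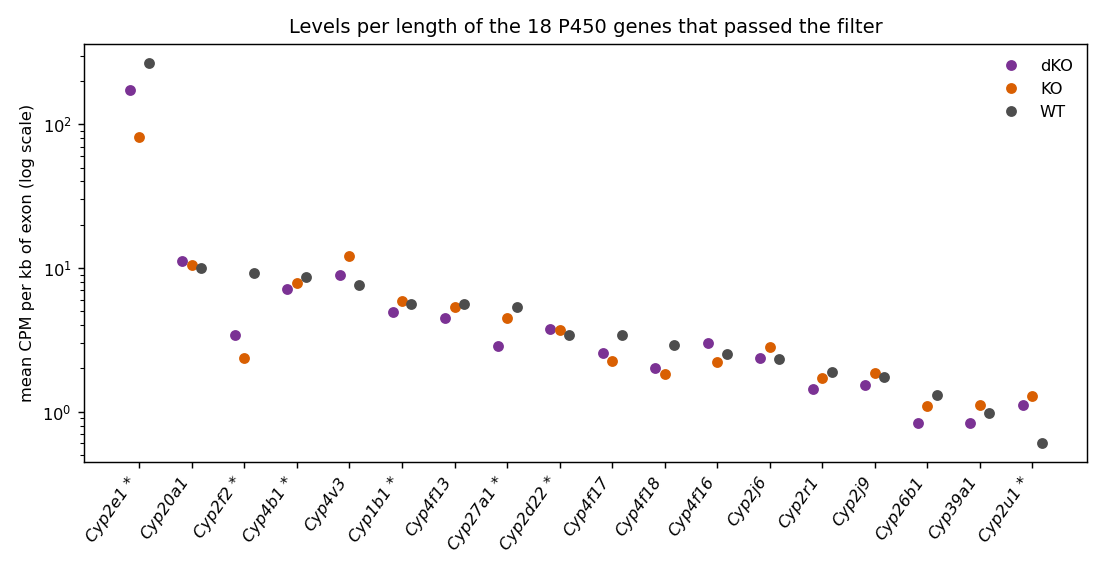
Mean level per length (CPM per kb of exon, log scale) of the 18 P450 genes found by symbol that passed the filter on low counts. Genes are ordered by the WT mean, with dKO, KO and WT side by side, and asterisks mark the 7 members. Cyp2e1 stands above all others in each group (173 CPM per kb in dKO, 81.8 in KO and 267 in WT).

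The make-up of the 7 P450 transcripts within each library was then compared. Cyp2e1 made up 82.6%, 87.7%, 92.5%, 88.7% and 88.7% of their summed CPM per kb in dKO, 60.4%, 76.8%, 76.2%, 83.7% and 74.2% in KO, and 91.3%, 92.4%, 86.7%, 86.8% and 87.0% in WT. All KO libraries had a smaller Cyp2e1 share than any WT library, and dKO overlapped both. Cyp4b1 took 3.65% on average in dKO, 7.50% in KO and 2.94% in WT, and Cyp1b1 took 2.61% in dKO, 6.12% in KO and 1.96% in WT. These shares sum to the whole within a library, so a lower Cyp2e1 share raises the others without any change in their own level.

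**Figure D4:**
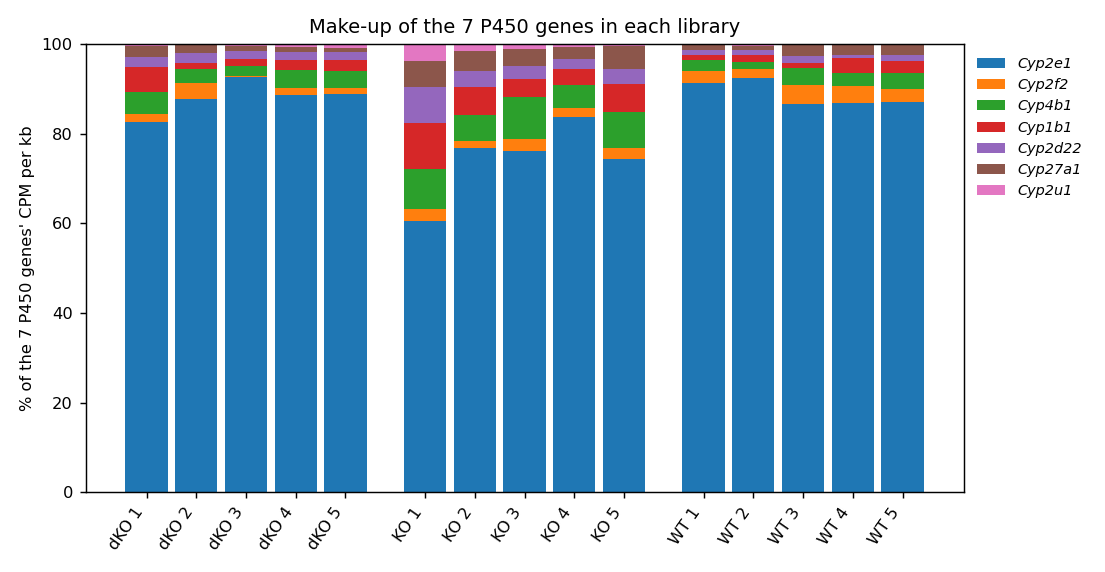
Share of each of the 7 P450 genes in their summed CPM per kb (vertical axis, percent) in each library of dKO, KO and WT. The Cyp2e1 part is 82.6% to 92.5% in dKO, 60.4% to 83.7% in KO and 86.7% to 92.4% in WT.

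The pattern of Cyp2e1 over the 15 libraries was set against all tested genes by the mean absolute difference in log2 CPM, each gene centred on its own mean. Fbxo45, a ubiquitin ligase subunit, was among the closest at 0.39, with 39.0 CPM in dKO, 26.7 CPM in KO and 49.1 CPM in WT. Acsm5, a mitochondrial acyl-CoA synthetase, was among them at 0.41, with 3.61 CPM in dKO, 1.96 CPM in KO and 5.57 CPM in WT. For Cyp2f2 the closest were Mt2 (0.41), a metallothionein, Pygo1 (0.55), a Wnt coactivator, and Hp (0.58), which encodes haptoglobin. The means of Hp were 78.9 CPM in dKO, 48.3 CPM in KO and 191 CPM in WT. Among the members, the pattern nearest to Cyp2e1 was that of Cyp2f2 (0.62), followed by Cyp4b1 (0.69) and Por (0.71). The most alike pair of all was Por and Cyp2d22 (0.23). This measure is also small for any 2 genes that vary little. In the dKO pair with a shared mouse number, Por was 1.69 times its mean in the other 3 dKO libraries, and Cyp2d22 was 0.92 times its own. These likenesses describe 15 libraries and carry no test.

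Genes within 250 kb of each member were looked up on mm9. Of the 9 tested neighbours of Cyp2e1, 1 was called, in KO against WT and in dKO against WT. It was Cox8b, a cytochrome c oxidase subunit of brown fat and muscle, 124.0 kb away. Cox8b was higher in both of these comparisons, where Cyp2e1 was lower (log2 fold change 1.44 in KO against WT, and 1.36 in dKO against WT). Between dKO and KO, where Cyp2e1 was higher in dKO, the log2 fold change of Cox8b was -0.077. The name of Cox8b was given after its values were seen. The summed CPM of 8 skeletal muscle markers had medians of 207.15 in dKO, 235.59 in KO and 69.088 in WT. The highest sums were 437.9 in dKO, 3290.5 in KO and 1135.2 in WT. The brown fat gene Ucp1 had 98.5 ± 23.6 CPM in dKO, 489 ± 202 CPM in KO and 13.9 ± 9.67 CPM in WT (SD, n = 5 each). The part of the muscle markers or of Ucp1 in the Cox8b values was not tested. None of the 8 tested neighbours of Cyp2f2 was called, nor any neighbour of the other 6 members in any of the 3 comparisons by edgeR.

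The rest of the P450 machinery was read from 5 lists. Of 84 further P450 genes found by symbol, 11 were abundant enough to test, and 40 of all 91 so found had no count in any library. None of the 11 was called by edgeR, with 1, 1 and 0 at an unadjusted p under 0.05 for KO over WT, dKO over KO and dKO over WT, beside 9.54%, 6.17% and 14.5% of all genes. Their median log2 fold changes were -0.07, -0.18 and -0.29 in the same order. The most abundant was Cyp4v3, a fatty acid hydroxylase, at 55.4 ± 11.3 CPM in dKO, 76.1 ± 10.02 CPM in KO and 47.6 ± 9.37 CPM in WT (SD, n = 5 each). Every KO library of Cyp4v3 was above every WT library (log2 fold change 0.67, SE 0.16, edgeR adjusted p = 0.072). It was the only gene of this list called by DESeq2 (adjusted p = 0.0184) or by limma voom (adjusted p = 0.0221). Cyp20a1, a P450 of unsettled substrate, had 25.7 ± 4.20 CPM in dKO, 23.8 ± 3.19 CPM in KO and 22.9 ± 1.12 CPM in WT (SD, n = 5 each).

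Redox partners were listed under 13 names, of which 11 were found and 10 were tested. Cyb5a and Fdx2 were not found, but these are newer names of Cyb5 and Fdx1l, which were tested. None of the tested partners was called by edgeR, DESeq2 or limma voom in any comparison. At an unadjusted p under 0.05 there were 2 for KO against WT, 0 for dKO against KO and 3 for dKO against WT, beside 9.54%, 6.17% and 14.5% of all genes. The medians were 0.14, 0.15 and 0.25. Cyb5b, the outer mitochondrial membrane cytochrome b5, had 264 ± 176 CPM in dKO, 209 ± 68.8 CPM in KO and 120 ± 18.2 CPM in WT (SD, n = 5 each), with all KO libraries above all WT libraries. Its edgeR adjusted p was 0.49 in KO against WT, and 0.175 in dKO against WT. Cyb5r3, a cytochrome b5 reductase, had 115 ± 59.99 CPM in dKO, 86.6 ± 14.3 CPM in KO and 96.6 ± 19.5 CPM in WT.

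All 13 genes of heme synthesis and breakdown were tested. edgeR and DESeq2 called none, and limma voom called 1, Alas1, for KO against WT (adjusted p = 0.0399). At an unadjusted p under 0.05 there were 5 for KO against WT, 1 for dKO against KO and 4 for dKO against WT, beside 9.54%, 6.17% and 14.5% of all genes. The medians were 0.44, -0.03 and 0.26. Alas1, the rate-limiting enzyme of heme synthesis outside red cells, had 79.2 ± 33.3 CPM in dKO, 90.4 ± 22.4 CPM in KO and 48.3 ± 11.3 CPM in WT (SD, n = 5 each). Every KO library of Alas1 was above every WT library (log2 fold change 0.90, SE 0.26, edgeR adjusted p = 0.17). Fech, which inserts iron to complete heme, had 56.2 ± 13.2 CPM in dKO, 51.9 ± 11.7 CPM in KO and 35.8 ± 6.18 CPM in WT. The value for dKO against WT (0.66, SE 0.18, edgeR adjusted p = 0.12) passed without dKO replicate 1 (0.74, adjusted p = 0.0424).

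Of 16 genes listed for P450 regulation (receptors, their partners and targets such as Nqo1), 10 were tested, and edgeR and DESeq2 called none. At an unadjusted p under 0.05 there was 1 in each comparison, beside 9.54%, 6.17% and 14.5% of all genes. In limma voom 1 was called, Tiparp, a target and repressor of the aryl hydrocarbon receptor, for KO against WT (0.81, adjusted p = 0.0467). The medians were 0.04 for KO against WT, 0.06 for dKO against KO and 0.12 for dKO against WT. Pparg, the main regulator of adipocyte formation, had 129 ± 48.2 CPM in dKO, 111 ± 21.5 CPM in KO and 108 ± 16.2 CPM in WT (SD, n = 5 each). Nfe2l2, the NRF2 factor of oxidative stress, had 96.7 ± 18.5 CPM in dKO, 84.4 ± 16.6 CPM in KO and 91.3 ± 14.5 CPM in WT.

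Of 30 other oxidation and conjugation enzymes, 24 were tested and edgeR called none. At an unadjusted p under 0.05 there were 6 for KO against WT, 0 for dKO against KO and 6 for dKO against WT, beside 9.54%, 6.17% and 14.5% of all genes. The medians were 0.04, 0.09 and 0.04. For KO against WT, DESeq2 called Gstt3, a glutathione transferase (-1.57, adjusted p = 0.0212), and limma voom called Sult1a1, a phenol sulfotransferase (-0.65, adjusted p = 0.0378). Both were named after their values were seen. Gstz1, which takes part in tyrosine breakdown, had 264 ± 142 CPM in dKO, 195 ± 33.4 CPM in KO and 195 ± 40.9 CPM in WT (SD, n = 5 each). Mgst1, a membrane glutathione transferase, had 179 ± 37.5 CPM in dKO, 199 ± 63.2 CPM in KO and 132 ± 24.2 CPM in WT (log2 fold change 0.59 for KO against WT, SE 0.20, edgeR adjusted p = 0.271).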

How the data were processed

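Raw counts of reads per gene for 15 libraries were used as the authors deposited them, per the file headers, and gene lengths (other values of the deposited table) gave CPM per kb. The submitters' processing notes name Subread, featureCounts, FastQC and edgeR, and build mm9, without versions. For strand and multi-mapping reads, settings were not given in the sources used here, so reads of overlapping genes cannot be assigned with certainty. A further 45 per-sample columns were not used.

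Genes were filtered (filterByExpr, minimum count 10, minimum total 15) and tested in 1 edgeR 4.0.16 robust quasi-likelihood fit over all 3 groups (R 4.3.3, TMM scaling, Benjamini-Hochberg over 12188 genes, called under an adjusted p of 0.05). CPM uses the TMM library size, and SEs are the log2 fold change over the root of F. Alternatives used DESeq2 1.42.0, limma 3.58.1 voom and other scalings, filters and samples. The procedure was tested on simulated data.

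The members and lists were chosen with earlier results of these data known. All 8 members are named. From each list the called genes, or else the 2 most abundant by CPM, are named. Likeness gives the 3 genes closest in centred log2 CPM (prior count 2), for Cyp2e1 and for each called member, leaving out Gm and Rik names. One of these genes is not reported here. Total counts per library ran from 1564004 to 21570688, and mitochondrial ribosomal RNA took 33.5% to 50.0% of them. 1 count was worth 0.0484 to 0.622 CPM.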

Additional observations from a re-analysis of the deposited data

Results flagged for a closer look

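Dixon's gap test, applied to each member in each group of 5 libraries (24 groups), marked 2 values, and chance marks about 1 in 20 groups. Cyp2e1 in dKO replicate 1 stood at 245 CPM, below the nearest dKO library at 321 CPM (gap over range 0.714, critical value 0.71). Cyp4b1 in dKO replicate 3, the shallowest library, stood at 9.95 CPM, below the nearest dKO library at 16.1 CPM (gap over range 0.716). Without dKO replicate 1 and without dKO replicate 3, Cyp2e1 and Cyp4b1 passed the edgeR test in neither dKO comparison.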

How the results depend on the processing

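Of 549 log2 fold changes of members under alternatives, 518 kept their direction, and their side of the threshold where an adjusted p was given. DESeq2 gave none for Cyp2u1 in KO against WT. Of the other values, 2 lost a call, 3 gained one and 26 changed sign, and the cause was not tested. The 2 lost calls were of Cyp2f2 in KO against WT. Members called in that comparison numbered 1 to 2 when single libraries were left out. Nothing is read from this, because KO against WT is treated as used for the choice. Members called in dKO against KO numbered 1 by DESeq2, and in dKO against WT 1 by DESeq2 and 0 to 1 with single libraries left out. Cyp2u1 did not pass the filter when only the 2 groups compared were fitted, so it has no value there.

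Further list genes were called in KO against WT: 1 other P450 gene by DESeq2, voom, the fit of the 2 groups alone and the fit without dKO replicates 4 and 5 (Cyp4v3 each time), 1 redox partner by the last 2 of these (Cyb5b), 1 heme gene by voom and the same 2 fits (Alas1), 1 receptor-list gene by voom, and of the other enzymes 1 by DESeq2, 1 by voom and 2 by each of the same 2 fits. Heme genes called in dKO against WT numbered 0 to 1 with single libraries left out.

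Sign changes came mostly from leaving out single libraries. Over those fits, KO against WT ran from -0.048 to 0.29 for Cyp1b1, -0.025 to 0.18 for Cyp2d22 and -0.059 to 0.039 for Por. In dKO against KO the ranges were -0.21 to 0.13 for Cyp4b1, -0.070 to 0.098 for Cyp2d22, -0.48 to 0.12 for Cyp2u1 and -0.042 to 0.17 for Por. In dKO against WT they were -0.48 to 0.029 for Cyp1b1, -0.0083 to 0.20 for Cyp2d22 and -0.053 to 0.17 for Por. In dKO against KO, voom gave 0.12 for Cyp4b1, -0.029 for Cyp2d22 and -0.059 for Por. Por in dKO against KO was -0.033 with dKO replicates 4 and 5 summed and -0.27 without both. Por in dKO against WT was -0.081 by voom, -0.054 with that pair summed and -0.29 without both.

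Genes called over the whole table ranged from 36 to 286 for KO against WT, 4 to 37 for dKO against KO and 26 to 240 for dKO against WT. Precision is limited by depth for Cyp2u1 (1 to 10 counts in WT) and Cyp2f2 (2 counts in dKO replicate 3). No paired analysis was possible because the labels give no replicate numbers that groups share.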
